A study of Homo sapiens with 11 samples.

Results

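Integrins are cell-surface receptors built of 1 alpha and 1 beta chain, and laminins are secreted proteins of the basement membrane built of 1 alpha, 1 beta and 1 gamma chain. The 38 genes that encode these chains were taken by symbol from the 28152 genes of a table of read counts: 18 integrin alpha genes, 8 integrin beta genes and 12 laminin genes. The rule reads symbols only. The counts came from 11 tumours, 1 library each, grown from BT-474 in female athymic nude mice. BT-474 is a breast cancer line that the labels give as positive for hormone receptors and HER2, so every tumour derives from the same line. Cells were placed in the fourth mammary fat pad in medium mixed with 50% Matrigel, a laminin-rich basement membrane extract. All mice carried an estradiol pellet of 0.72 mg made to release for 90 days, and tumours entered the study once above 95 mm3. The 6 vehicle mice received mannitol in water under the skin, and the 5 evexomostat mice received evexomostat (SDX-7320) at 12 mpk in the same solution, both every 4 days. Evexomostat inhibits methionine aminopeptidase 2, an enzyme that removes the first methionine from new proteins. RNA was taken at day 33. Mouse age was not given in the sources used here. Athymic nude mice lack T cells and keep other leukocytes, vessels and stroma of their own.

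Integrins anchor cells to the matrix and pass signals in both directions across the membrane, with talin and kindlin bound to the beta chain inside the cell. The alpha chain sets much of the choice of ligand: some alpha chains bind laminins, some collagens, some the RGD motif of fibronectin and vitronectin, and a leukocyte group serves adhesion between cells. In breast epithelium, laminin receptors hold the basal cell surface to the basement membrane, and the pair of ITGA6 and ITGB4 forms the core of the hemidesmosome. Laminin chains assemble inside the cell before secretion, so the alpha, beta and gamma chains made together limit which laminins can form.

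The sequences just upstream of 4 genes are shown. These had an unadjusted p under 0.05 between the groups in edgeR's quasi-likelihood test and a promoter in RefSeq. That threshold took 13.4% of all tested genes, and of the 4 only ITGB8 passed an adjusted p of 0.05. Each run holds the 250 bases before the first RefSeq transcription start, 5′ to 3′ on the gene's own strand, in build GRCh38.p14. The windows are chr7:20330650-20330899 on the plus strand for ITGB8, chr2:186589806-186590055 on the plus strand for ITGAV, chr1:183023170-183023419 on the plus strand for LAMC1, and chr1:209652426-209652675 on the minus strand for LAMB3. LAMA1 had no entry. Capitals mark matches to an NF-kB-type motif, GGGA and CC with any 4 bases between them.
ITGB8: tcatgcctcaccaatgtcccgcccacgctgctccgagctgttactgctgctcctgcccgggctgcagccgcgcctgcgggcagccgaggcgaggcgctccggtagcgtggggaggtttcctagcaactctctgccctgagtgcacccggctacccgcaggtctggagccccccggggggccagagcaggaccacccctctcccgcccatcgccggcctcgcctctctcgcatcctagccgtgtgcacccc
ITGAV: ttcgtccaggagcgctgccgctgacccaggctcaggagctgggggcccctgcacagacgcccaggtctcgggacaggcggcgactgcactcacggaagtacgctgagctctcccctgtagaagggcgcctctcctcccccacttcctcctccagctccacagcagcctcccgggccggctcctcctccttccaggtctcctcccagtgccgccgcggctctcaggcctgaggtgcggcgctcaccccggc
LAMC1: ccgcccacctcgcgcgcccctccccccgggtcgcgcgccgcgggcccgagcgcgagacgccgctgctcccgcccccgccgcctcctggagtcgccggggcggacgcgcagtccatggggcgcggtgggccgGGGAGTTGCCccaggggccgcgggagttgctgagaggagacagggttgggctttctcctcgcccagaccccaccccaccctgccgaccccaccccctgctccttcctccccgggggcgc
LAMB3: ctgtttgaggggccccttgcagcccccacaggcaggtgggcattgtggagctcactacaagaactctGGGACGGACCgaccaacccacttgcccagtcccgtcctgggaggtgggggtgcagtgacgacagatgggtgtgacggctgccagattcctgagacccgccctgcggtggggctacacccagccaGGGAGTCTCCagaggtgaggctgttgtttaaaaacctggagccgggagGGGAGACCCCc
Both strands were searched for this motif, for TGANTCA, the motif bound by AP-1, and for ACGTG, the core of the hypoxia response element. The window of LAMB3 held 3 matches to the NF-kB-type motif, that of LAMC1 held 1, and those of ITGB8 and ITGAV held 0. None of these 4 windows held either of the other motifs. Among the 26 integrin and laminin genes with a promoter entry, 6 held the NF-kB-type motif, 2 held ACGTG and 1 (LAMA3) held TGANTCA. Of all 27305 promoters of the same length, 22.1% held the first, 18.7% the second and 6.6% the third, so the 6 of 26 lay near the background. A share of 0.721% held 3 or more matches to the NF-kB-type motif. The number 3 is the count of the LAMB3 window itself, so this share describes that window and is no test of it. A match describes letters in the window and does not show a bound site.

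The libraries held between 22808033 and 39249329 counted reads. The vehicle library numbered 001 stood apart: its log2 level changed by -0.150 per doubling of transcript length relative to the mean of the libraries, where the other vehicle libraries gave 0.017 to 0.059 and the evexomostat libraries -0.062 to 0.033. It was the lowest of all 11 libraries for 14 of the 33 integrin and laminin genes tested. The tested integrin and laminin genes have long transcripts, with a median of 5618 bases against 3480.5 over all tested genes. Several results are therefore given with and without it. Markers of luminal breast cells were low for a line labelled positive for hormone receptors and HER2. ERBB2, the gene of HER2, averaged 52.5 ± 14.1 under vehicle (SD, n = 6) in CPM, the read count scaled to a common library size, ESR1, the estrogen receptor, 0.329 ± 0.176, and CDH1, E-cadherin, 0.474 ± 0.459, while the basal keratin gene KRT17 averaged 549.0 ± 265.6. The other basal markers were lower under vehicle. KRT5 averaged 89.9 ± 100.7 CPM, MYLK 19.1 ± 8.35, KRT14 5.73 ± 3.54, ACTA2 4.65 ± 1.57 and TP63 3.63 ± 4.08. In RPM, the deposited library-scaled counts, the 8 luminal markers summed to 38.6 to 74.7 under vehicle and 67.4 to 73.0 under evexomostat. The 6 basal markers, with KRT17 the most abundant of them, summed to 390.2 to 902.2 and 227.8 to 694.5.

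Across the genome, 101 of 16653 tested genes passed an adjusted p of 0.05 in edgeR's quasi-likelihood test, which is 0.606%, with 72 lower and 29 higher under evexomostat (0.432% and 0.174%). The split differed between settings, with 42 lower and 28 higher in edgeR with upper-quartile factors. With limma it was 31 lower and 43 higher on log2(RPM + 1), and 30 lower and 38 higher on log2(RPM + 0.1). The fits on RPM changed both the scaling and the model. The 2 fits on RPM also moved the median log2 fold change of all genes from -0.04 to 0.08 and 0.10. Among the integrin and laminin genes 33 of 38 held enough reads to test, and 1 of these 33 was called, ITGB8, lower under evexomostat. No gene of the 33 was called higher by edgeR, DESeq2 or limma-voom with all 11 libraries, and 0 were higher at an unadjusted p under 0.05 in edgeR. An unadjusted p under 0.05 was reached by ITGB8, LAMA1, ITGAV, LAMC1 and LAMB3, all 5 lower. The same threshold took 13.4% of all tested genes, 8.55% lower and 4.82% higher, so the count of 5 in 33 lies near the background. The median log2 fold change of the 33 genes was -0.09 against -0.04 over all tested genes, and 20 of the 33 were negative against 55.4% of all tested genes. With vehicle 001 left out the median was -0.15 against -0.002 over all tested genes. In that fit 24 of the 33 were negative, and no share over all genes was computed. Without vehicle 001, ITGB8, LAMA1, LAMC1 and ITGAV were called lower, beside a background that rose to 5.22% of 16565 genes, and 3.24% lower. DESeq2 called ITGB8 and LAMA1 lower beside 3.92% of 16539 genes, and limma-voom with sample quality weights called ITGB8, LAMA1 and LAMC1 lower beside 6.36% of genes. The authors' deposited table gives ITGB8 alone of the 38 an adjusted p under 0.05, beside 0.952% of its 28152 genes. In RNA from whole tumours, fewer cells of a type and less RNA per cell cannot be told apart.

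**Figure D1:**
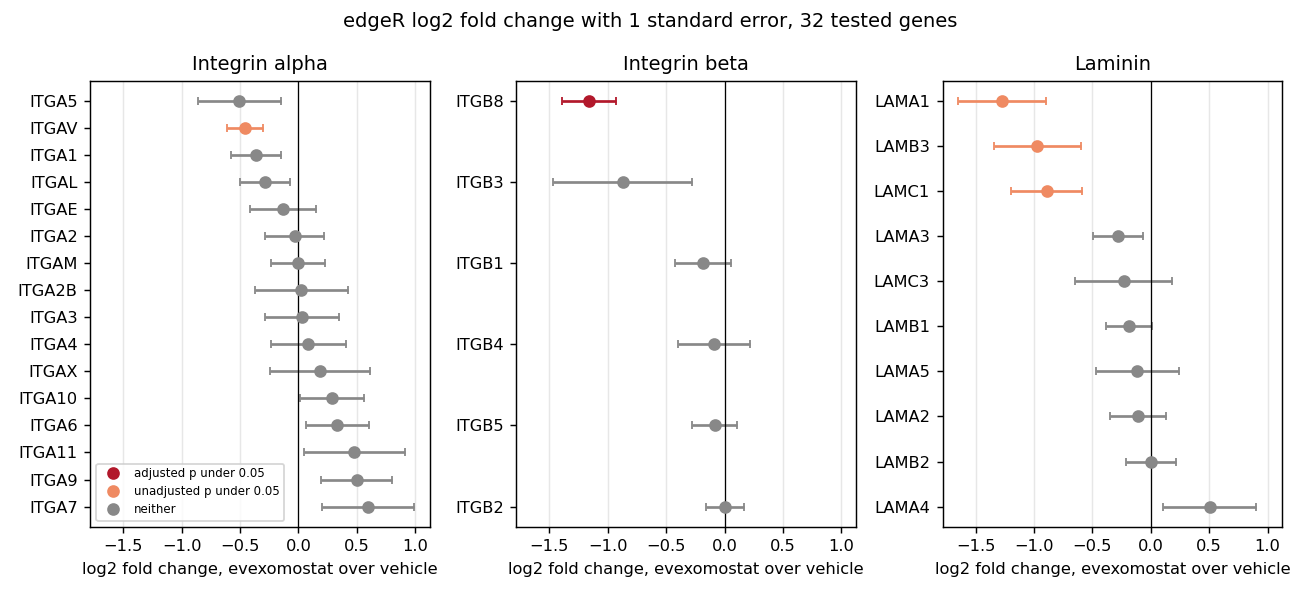
Points give the edgeR log2 fold change of evexomostat over vehicle for 32 tested genes, with bars of 1 standard error, in 3 panels for integrin alpha, integrin beta and laminin genes. ITGB8 alone is marked as past an adjusted p of 0.05, and ITGAV, LAMA1, LAMB3 and LAMC1 are marked as past an unadjusted p of 0.05, all to the left of 0.

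Levels between genes were compared as CPM per kilobase of exon sequence, averaged over all 11 libraries. ITGA3 was the most abundant at 137.1 CPM per kilobase, followed by ITGB1 at 83.4, LAMB2 at 58.0 and LAMC1 at 38.0. ITGA3 and ITGB1 together form a laminin receptor, and LAMB2 and LAMC1 are a beta and a gamma laminin chain. ITGAV at 30.3, ITGB4 at 27.3 and LAMA5 at 27.1 came next and lay closer to each other than the spread of any of them over the vehicle libraries. The 5 genes left untested for low counts were ITGA8 with 0 to 2 reads a library, ITGAD with 0 to 9, LAMB4 with 0 to 5, ITGB7 with 5 to 20 and ITGB6 with 2 to 38.

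**Figure D2:**
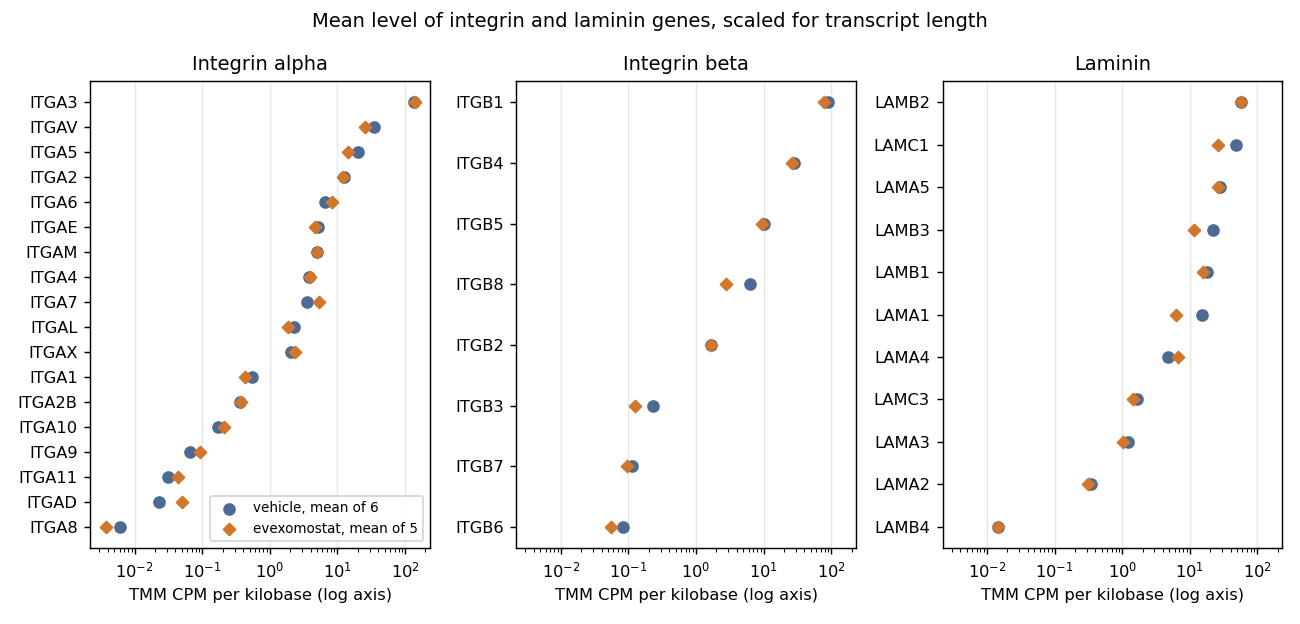
Points give the mean level of 37 genes in CPM per kilobase on a log axis, circles for the 6 vehicle libraries and diamonds for the 5 evexomostat libraries, sorted within integrin alpha, integrin beta and laminin genes. ITGA3, ITGB1 and LAMB2 head the 3 panels, and ITGB8, LAMA1, LAMB3 and LAMC1 show the diamond to the left of the circle.

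ITGB8 encodes the beta chain that pairs with ITGAV alone and holds latent TGF-beta for activation. Its level under vehicle ran from 36.8 CPM through a median of 55.4 to 93.1, and under evexomostat it was 19.6, 34.4, 27.7, 25.8 and 21.2 CPM. All 5 evexomostat tumours lay under the lowest vehicle tumour, with the nearest pair at 34.4 and 36.8 CPM. Groups that do not overlap occurred in 2.97% of tested genes, with evexomostat lower in 1.64% and higher in 1.33%. Of the 33, ITGB8 was the only integrin or laminin gene with such a separation. The mean fell from 57.6 ± 19.8 (SD, n = 6) to 25.8 ± 5.84 CPM (SD, n = 5). The log2 fold change was -1.16 (SE 0.23) with an adjusted p of 0.0462 in edgeR's quasi-likelihood test. A two-sided exact permutation test of this gene gave an unadjusted p = 0.00433, where the smallest possible value is 0.00216. With no overlap between the groups, that p largely restates their separation and is not further evidence. The same permutation test gave unadjusted p of 0.0173 for ITGAV, 0.0606 for LAMA1, 0.0758 for LAMB3 and 0.0887 for LAMC1. The authors' deposited table gives ITGB8 a log2 fold change of -1.07 and an adjusted p of 0.00741.

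The call for ITGB8 lay close to the threshold. Over 23 other settings the log2 fold change stayed between -1.30 and -0.97, and the gene was called in 10 of them, with adjusted p from 0.000278 to 0.149. Leaving out 1 library ended the call for vehicle 003, 004, 005 and 006 (adjusted p 0.0612, 0.0802, 0.0740 and 0.0643 in edgeR). Over all genes these fits called 52, 46, 77 and 79, against 101 with all libraries. The call also ended for evexomostat 002, 003, 004, 005 and 007 (0.123, 0.0572, 0.122, 0.132 and 0.149), where 2, 46, 28, 1 and 3 genes were called over all genes. It held without vehicle 001 at an adjusted p of 0.0133 and without vehicle 007 at 0.0358, where 865 and 56 genes were called. The ITGB8 call also ended with upper-quartile factors (0.0629), with limma on log2(RPM + 1) (0.102) or log2(RPM + 0.1) (0.108), and with offsets for transcript length and GC content (0.0516). Those fits called 70, 74, 68 and 104 genes, in the same order.

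**Figure D3:**
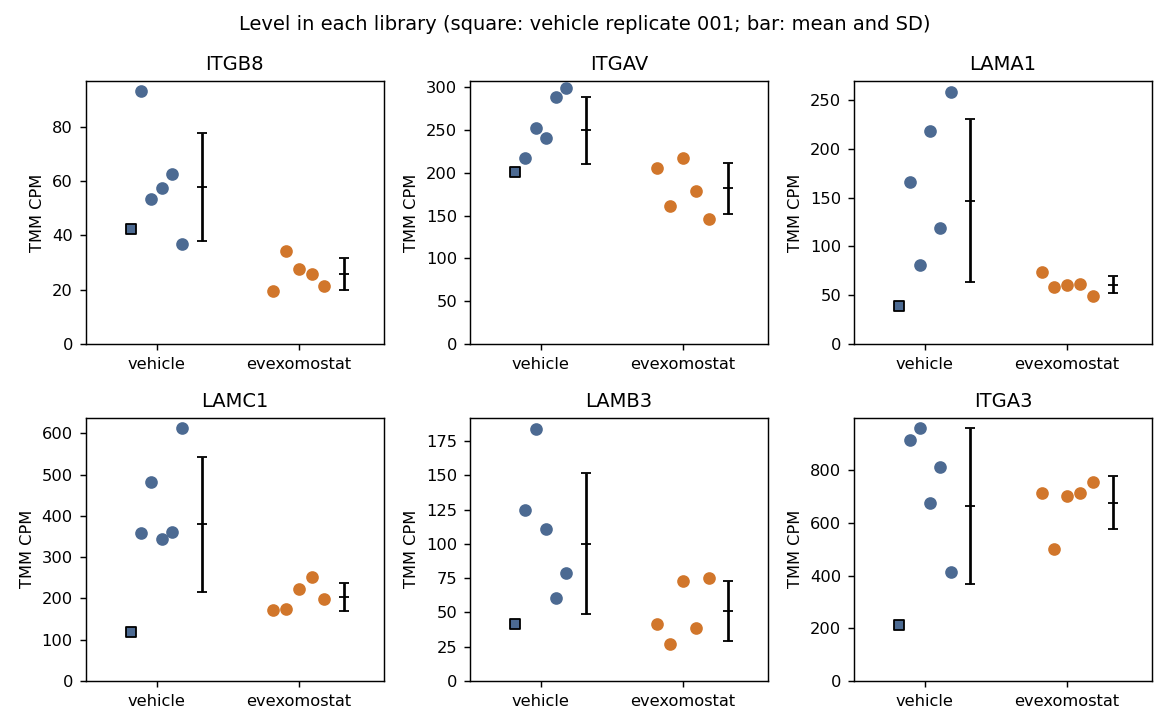
Each point is 1 library in TMM-scaled CPM for ITGB8, ITGAV, LAMA1, LAMC1, LAMB3 and ITGA3, with the vehicle library 001 as a square and bars for the mean and SD of each group. The 2 groups do not overlap for ITGB8, and for LAMA1 and LAMC1 the square is the sole vehicle library among or under the evexomostat libraries.

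ITGAV, the RGD-binding alpha chain that serves several beta chains, had vehicle levels of 200.3 CPM at the lowest, 246.3 at the median and 299.3 at the highest. The evexomostat levels were 205.9, 160.7, 217.8, 178.6 and 145.8 CPM. The ranges met at their edges: 2 evexomostat tumours, 002 and 004, lay above vehicle 001, and 004 also lay above vehicle 003 at 216.7 CPM. In edgeR the log2 fold change was -0.46 (SE 0.15) with an adjusted p of 0.201, and -0.51 with 0.0453 without vehicle 001. ITGB5, a beta partner of ITGAV, had group means of 43.8 ± 12.8 (SD, n = 6) and 41.4 ± 2.74 CPM (SD, n = 5), and its log2 fold change of -0.08 turned positive in both fits on RPM. ITGB3, the other vitronectin-binding partner, was scarce, at 1.00 ± 0.753 CPM under vehicle and 0.543 ± 0.225 under evexomostat, with an adjusted p of 0.586 in edgeR.

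ITGA5, the alpha chain of the classical fibronectin receptor, ranged under vehicle from 22.4 CPM through a median of 106.7 to 128.7. Under evexomostat it was 66.8, 46.5, 55.3, 74.9 and 71.6 CPM. Vehicle 001 lay under all 5 evexomostat tumours and vehicle 006, at 51.6 CPM, lay among them, while the other 4 vehicle tumours lay above. In edgeR the log2 fold change was -0.50 (SE 0.35) with an adjusted p of 0.600, and -0.70 with 0.0803 without vehicle 001. In the 8 libraries left without vehicle 001, vehicle 006 and evexomostat 002 it was -0.90 with an adjusted p of 0.0193, so the call depended on which libraries entered. Over all genes that fit called 733 of 16588, against 101 of 16653 with all libraries. The platelet chain ITGA2B was near 1 CPM in both groups, and PF4, PPBP, GP9 and GP1BB, 4 of the 6 platelet markers, had 0 reads in every library. The other 2, GP1BA and GP6, averaged 1.83 ± 0.584 and 0.880 ± 0.254 CPM under vehicle and 1.14 ± 0.206 and 1.91 ± 0.779 under evexomostat. Their adjusted p was 0.302 and 0.109 in edgeR, and the part of platelets in ITGA2B was not tested. Cells of the host are mouse cells, while the genome named was human and the treatment of mouse reads was not given. Counts of 0 for marker genes therefore do not show that host cells were absent.

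The laminin-binding alpha chains are ITGA3, ITGA6 and ITGA7, and none of the 3 passed the test. ITGA3 ranged under vehicle from 210.4 CPM through a median of 743.4 to 960.5, and under evexomostat it was 713.2, 502.5, 701.2, 714.2 and 754.2 CPM. Vehicle 001 and vehicle 007 lay under every evexomostat tumour, and vehicle 003, 004 and 006 lay above every one. The log2 fold change of 0.03 (SE 0.32) turned negative, to -0.15, without vehicle 001, so no direction can be given. ITGA6, which joins ITGB4 in the hemidesmosome, ranged from 19.8 CPM through 39.9 to 50.3 under vehicle and was 72.0, 24.7, 41.2, 49.3 and 56.3 CPM under evexomostat. The ranges overlapped over most of their length, and the log2 fold change was 0.33 (SE 0.27; adjusted p 0.659 in edgeR). It was 0.15 without evexomostat 002, 0.20 without vehicle 007 and 0.50 without evexomostat 003.

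ITGA7, the laminin receptor of muscle, had a median of 9.53 CPM under vehicle, from 8.53 to 41.5, and values of 23.9, 34.7, 18.6, 22.3 and 20.6 CPM under evexomostat. All 5 evexomostat tumours lay above 5 of the 6 vehicle tumours and under the remaining one, vehicle 005. The log2 fold change was 0.60 (SE 0.39) with an adjusted p of 0.569 in edgeR. Without vehicle 005 it was 1.17 with an adjusted p of 0.0475, the only setting in which any integrin or laminin gene was called higher. That fit left out the tumour with the highest ITGA7 level, and it called 21 genes higher and 56 lower among all 16527 tested. The 10 skeletal muscle markers summed to 1.93 to 19.8 RPM under vehicle and 2.15 to 490.9 under evexomostat, with 490.9 in evexomostat 005, where ITGA7 was 22.3 CPM, and 12.3 in vehicle 005, where it was 41.5 CPM. Their part in the ITGA7 values was not tested. ITGA7 overlaps BLOC1S1, which had 94 to 391 reads a library, and whether counting used strand was not given in the sources used here.

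The collagen-binding alpha chains ITGA1, ITGA2, ITGA10 and ITGA11 had no called gene. ITGA2 was the most abundant of them per kilobase, with group means of 97.0 ± 32.3 (SD, n = 6) and 94.8 ± 28.6 CPM (SD, n = 5). ITGA1 had means of 5.85 ± 1.20 and 4.55 ± 1.22 CPM, and 4 of the 5 evexomostat values, between 3.62 and 4.29, lay just under the lowest vehicle value of 4.30. The fifth, in evexomostat 005, was 6.69, and the log2 fold change was -0.36 (SE 0.22; adjusted p 0.512 in edgeR). ITGA10 was at 0.892 ± 0.269 and 1.09 ± 0.264 CPM. ITGA11 was at 0.315 ± 0.115 and 0.442 ± 0.297, with its highest value, 0.960, again in evexomostat 005, and its log2 fold change of 0.48 became -0.02 without that library. The skeletal muscle marker sum of 490.9 RPM in the same library stands beside these values, and its part in them was not tested.

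ITGA4 and ITGA9, which bind VCAM1 and related ligands, were at 17.3 ± 10.3 and 0.530 ± 0.0587 CPM under vehicle and 18.3 ± 3.71 and 0.752 ± 0.358 under evexomostat. The 4 tested leukocyte alpha chains were ITGAE, ITGAL, ITGAM and ITGAX, and ITGB2, the beta partner of ITGAL, ITGAM and ITGAX, had vehicle and evexomostat means of 5.77 ± 0.708 (SD, n = 6) and 5.80 ± 0.770 CPM (SD, n = 5). Its log2 fold change and those of 9 other genes (ITGA2, ITGA2B, ITGA4, ITGAE, ITGAM, ITGAX, LAMA2, LAMB1 and LAMC3) lay between -0.23 and 0.18. ITGAL, the alpha chain of LFA-1, was at 11.9 ± 3.14 and 9.79 ± 2.22 CPM, a log2 fold change of -0.28 (SE 0.21; adjusted p 0.633 in edgeR). The 10 leukocyte markers, ITGB2 among them, summed to 65.6 to 99.4 RPM under vehicle and 73.5 to 90.0 under evexomostat. CD3E, the T cell gene, had 0 reads in all 11 libraries. As with the platelet markers, such counts do not show which mouse cells were present or absent.

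ITGB1, the shared partner of most laminin, collagen and fibronectin receptors, ranged under vehicle from 198.2 CPM through a median of 355.6 to 443.8, and was 395.3, 160.7, 294.5, 341.6 and 332.6 CPM under evexomostat. The lowest of all 11 values was in evexomostat 003 and the next lowest in vehicle 001, and the other 9 lay between 294.5 and 443.8. Its log2 fold change was -0.19 (SE 0.24, adjusted p 0.805 in edgeR). With 1 library left out it ranged from -0.30 without vehicle 001 or evexomostat 002 through -0.10 without vehicle 007 to -0.024 without evexomostat 003. In the 8 libraries whose numbers occur in both groups it was -0.52 with the number as a block and -0.47 without (adjusted p 0.238 and 0.215 in edgeR). ITGB4 ranged from 49.5 CPM through 186.2 to 249.9 under vehicle and was 109.5, 181.2, 166.4, 194.0 and 163.9 CPM under evexomostat. All 5 lay inside the vehicle range, and the log2 fold change of -0.09 (SE 0.31) turned positive in the fits on RPM and with limma-voom.

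Of the 5 laminin alpha genes, LAMA1 differed most. LAMA1 encodes the alpha chain of the laminin best known from embryonic basement membranes. Its vehicle levels ran from 39.5 CPM through a median of 142.0 to 258.3, and under evexomostat they were 74.0, 58.5, 60.4, 61.1 and 49.6 CPM. The 5 evexomostat tumours formed a narrow band, and 5 of the 6 vehicle tumours lay above it, from 81.0 CPM upward, while vehicle 001 lay under it. The means were 146.9 ± 83.1 (SD, n = 6) and 60.7 ± 8.72 CPM (SD, n = 5). In edgeR the difference was -1.27 on the log2 scale (SE 0.37; adjusted p 0.151). Without vehicle 001 the log2 fold change was -1.47 with an adjusted p of 0.0127, and DESeq2 on all 11 libraries gave an adjusted p of 0.0226. The authors' deposited table gives LAMA1 a log2 fold change of -1.19 with an adjusted p of 0.0556.

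LAMA5, the alpha chain of the most widespread epithelial laminins, ranged under vehicle from 81.2 CPM through a median of 324.8 to 546.0, and was 215.9, 362.1, 291.3, 300.0 and 310.9 CPM under evexomostat. All 5 lay within the vehicle range, and the log2 fold change of -0.12 (SE 0.36) turned positive in the fits on RPM and with limma-voom. LAMA4, a chain of vessels and stroma, had a vehicle range of 12.1 through a median of 29.5 to 90.1 CPM and values of 41.2, 40.2, 42.6, 64.2 and 73.4 under evexomostat. All 5 lay above 5 of the 6 vehicle tumours and under vehicle 006, and the log2 fold change was 0.50 (SE 0.40; adjusted p 0.654 in edgeR). It was 0.99 (adjusted p 0.147) without vehicle 006 and 0.32 without vehicle 007. Vehicle 006 also had the highest sum of the 7 endothelial markers, 23.3 RPM against 9.13 to 14.98 in the other 10 libraries, and 1386 RPM of the 8 fibroblast and mural markers, against 396.0 to 2069 under vehicle and 503.6 to 1128 under evexomostat. Their part in the LAMA4 values was not tested. Of the endothelial genes PECAM1 had 62 to 232 reads a library, KDR 81 to 318 and CDH5 0 to 2.

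LAMC1, the gamma chain of most laminins, ranged under vehicle from 118.2 CPM through a median of 359.5 to 613.1, and was 172.9, 174.1, 223.6, 252.8 and 198.5 CPM under evexomostat. As with LAMA1, vehicle 001 lay under all 5 evexomostat tumours, and the other 5 vehicle tumours lay above all of them, from 343.5 CPM upward. The means were 379.2 ± 164.5 (SD, n = 6) and 204.4 ± 34.1 CPM (SD, n = 5). In edgeR the log2 fold change was -0.89 (SE 0.31) with an adjusted p of 0.218, and -1.07 with 0.0102 without vehicle 001. LAMB2, its most abundant beta partner, ranged from 144.9 CPM through 363.3 to 414.7 under vehicle and was 310.7, 343.0, 316.2, 358.8 and 343.0 CPM under evexomostat. Vehicle 001 was again lowest, the other vehicle tumours lay between 333.1 and 414.7, and the log2 fold change was 0.00 (SE 0.22) with all libraries and -0.15 without vehicle 001.

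LAMA3 and LAMB3 encode an alpha and a beta chain of epithelial laminin bound by ITGA6 with ITGB4. LAMB3 ranged under vehicle from 41.4 CPM through a median of 94.9 to 184.3, and was 41.5, 27.0, 73.2, 38.5 and 75.5 CPM under evexomostat. The groups overlapped: 3 evexomostat tumours, 002, 003 and 005, lay at or under 41.5 CPM, and 2 lay among the lower vehicle tumours. The log2 fold change was -0.97 (SE 0.37; adjusted p 0.267 in edgeR), and -1.13 with 0.0672 without vehicle 001. No setting called LAMB3. LAMA3 ranged from 7.27 CPM through 14.7 to 16.0 under vehicle and was 12.4, 11.5, 8.99, 14.6 and 8.89 CPM under evexomostat. Vehicle 001 was the lowest of all 11, the other 5 vehicle tumours lay between 13.5 and 16.0, and 4 of the 5 evexomostat tumours lay under 13.5. For LAMA3 the log2 fold change was -0.28 (SE 0.21; adjusted p 0.639 in edgeR), and -0.40 with 0.132 without vehicle 001.

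Chains that join in 1 protein were also set against each other over the 11 libraries on the log2 scale. For LAMA3 with LAMB3, Pearson's r was 0.29 (permutation p = 0.384) and Spearman's rho 0.28 (permutation p = 0.402), and r was 0.22 without the 2 farthest libraries. For ITGA6 with ITGB4, r was 0.12 (permutation p = 0.711) and rho 0.25 (permutation p = 0.449), and r was 0.28 without the 2 farthest. For LAMB1 with LAMC1, r was 0.07 (permutation p = 0.831) and rho 0.01 (permutation p = 0.989), and r was 0.26 without the 2 farthest. After adjustment over the 5 pairs computed, the Pearson p was 0.831 for each of these 3 and the Spearman p lay between 0.748 and 0.989. Within the 6 vehicle libraries r was 0.53 for LAMA3 with LAMB3, 0.40 for ITGA6 with ITGB4 and -0.07 for LAMB1 with LAMC1. The 5 evexomostat libraries, too few to test here, had r of -0.76, -0.65 and 0.12 for the same pairs, so each pair had opposite signs in the 2 groups. Without vehicle 001, r over both groups was 0.15, -0.06 and -0.03. None of these 3 pairs was therefore shown to vary together at this number of tumours.

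Shares of the laminin alpha and beta classes, computed from CPM per kilobase, describe the make-up of the laminin messages and carry no test. LAMA5 held the largest share of the alpha chains, with a vehicle mean of 54.6% ± 14.1 (SD, n = 6) and an evexomostat mean of 64.3% ± 5.50 (SD, n = 5). LAMA1 held 29.4% ± 10.5, from 16.2% to 42.1%, under vehicle and 15.7% ± 4.20, from 11.8% to 22.7%, under evexomostat. LAMA4 held 12.4% ± 10.9 and 16.6% ± 4.08. The LAMA1 share in vehicle 001 was 24.4%, above all 5 evexomostat tumours, although its CPM was the lowest of all.

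Among the beta chains LAMB2 held 58.7% ± 6.55 and 68.3% ± 3.38, LAMB3 22.2% ± 8.05 and 13.3% ± 5.28, and LAMB1 19.1% ± 6.41 and 18.4% ± 2.04. A share falls when another chain of the class rises, so these values are not independent of each other. The 12 laminin genes together summed to 576.6 CPM in vehicle 001, to 1403 to 1818 in the other 5 vehicle tumours and to 990.3 to 1252 under evexomostat.

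**Figure D4:**
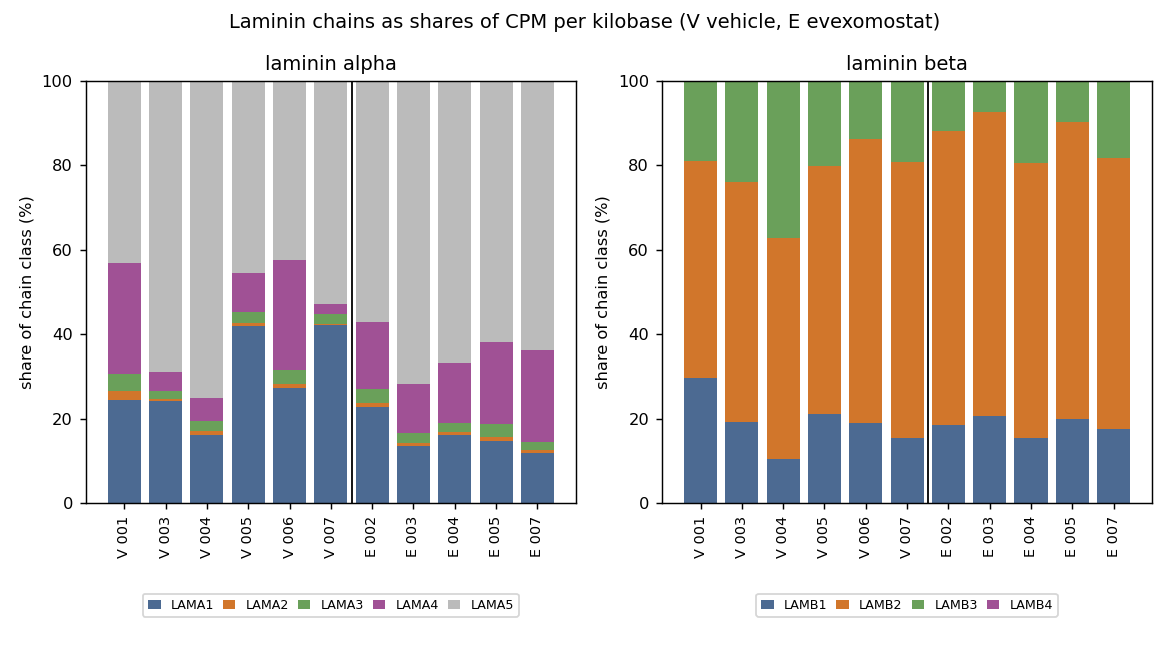
Stacked bars give each laminin chain as a percentage of its class (alpha or beta) in CPM per kilobase, 1 bar per library, with vehicle libraries (V) left of the line and evexomostat libraries (E) right of it. LAMA1 takes 16.2% to 42.1% of the alpha class under vehicle and 11.8% to 22.7% under evexomostat, and LAMB2 holds most of the beta class in every library.

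Shares of the integrin chain messages were computed in the same way. ITGA3 made up 55.6% ± 11.8 of the alpha chain messages under vehicle and 62.1% ± 2.81 under evexomostat, and ITGAV 16.3% ± 5.83 and 11.4% ± 1.75. ITGB1 made up 66.0% ± 5.21 and 64.4% ± 10.3 of the beta chain messages, and ITGB8 4.82% ± 1.504 and 2.51% ± 1.10. The ITGB8 share overlapped between groups, with 4.38% in evexomostat 003, where ITGB1 was lowest, and 2.57% in vehicle 007.

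**Figure D5:**
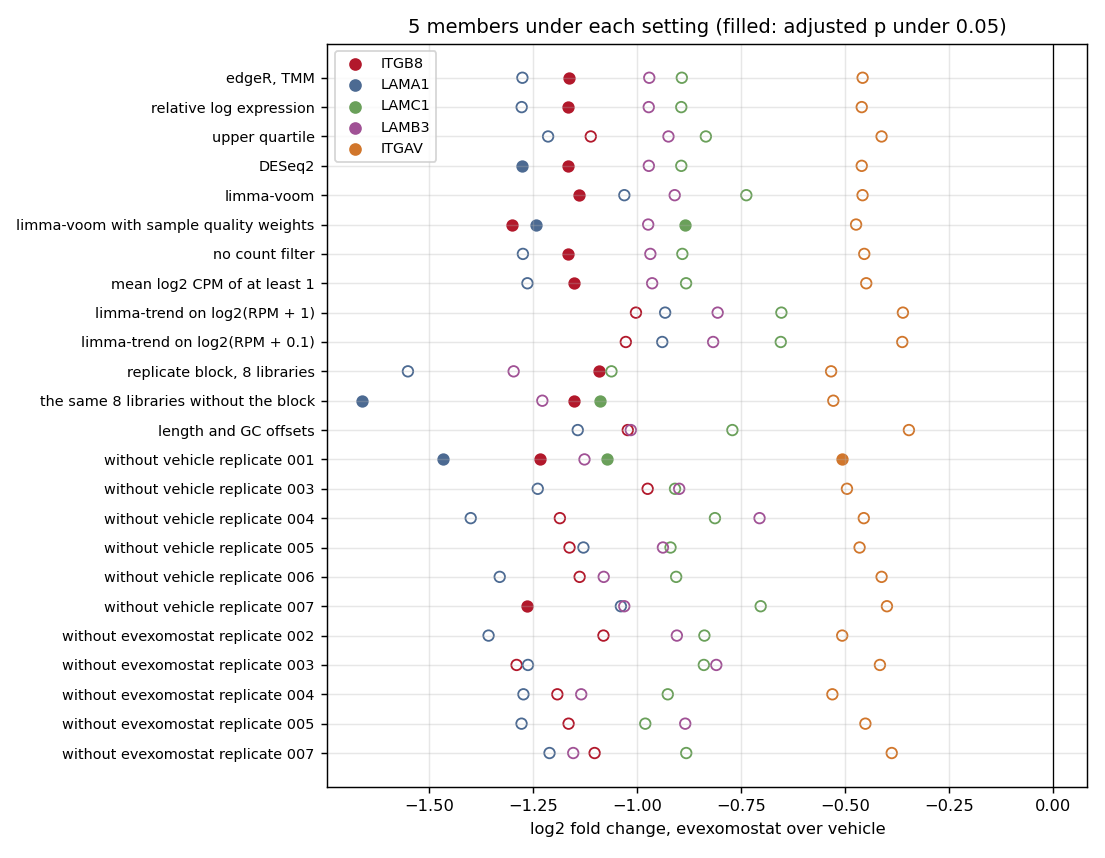
The log2 fold changes of ITGB8, LAMA1, LAMC1, LAMB3 and ITGAV are plotted for the main edgeR fit and 23 other settings, filled where the adjusted p was under 0.05. All points lie left of 0, ITGB8 is filled in the main fit and 10 others, and LAMB3 is filled in none.

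Genes that act with integrins were read from the same edgeR fit. Of 38 integrin activators and adhesion adaptors, such as the talins, kindlins and parvins, 0 passed the adjusted p of 0.05 in edgeR, while 4 lower and 2 higher passed an unadjusted p of 0.05. Over all tested genes 0.606% passed the adjusted threshold, and 8.55% lower and 4.82% higher passed the unadjusted one. DESeq2 called 1 of the 38, lower, where it called 3.92% of all genes, and limma-voom called 0. With sample quality weights limma-voom called 1, lower, where it called 6.36% of all genes. The smallest p-values belonged to LIMS1, the PINCH adaptor of the ILK complex (166.0 ± 39.3 to 110.0 ± 7.75 CPM, adjusted p 0.124), FERMT2, a kindlin (103.4 ± 16.7 to 80.3 ± 11.7 CPM, adjusted p 0.286), and TNS1, a tensin (44.8 ± 28.6 to 20.03 ± 3.52 CPM, adjusted p 0.313). Of 23 basement membrane and hemidesmosome partners, 0 passed the adjusted threshold and 5, all lower, passed the unadjusted one. DESeq2 called 3, all lower, limma-voom 0, and limma-voom with sample quality weights 4, all lower. The 5 past the unadjusted threshold in edgeR were led by COL4A4 and COL4A3, collagen IV chains (adjusted p 0.124 and 0.137), and by SDC4. SDC4, a syndecan that works with fibronectin receptors, went from 229.1 ± 30.7 to 164.6 ± 22.4 CPM (adjusted p 0.135 in edgeR). The median log2 fold changes of these 2 lists were -0.07 and -0.03, beside -0.04 over all tested genes. Without vehicle 001, 1 of the 38 and 5 of the 23 were called lower, where 3.24% of all genes were.

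Among 28 matrix and cell-surface ligands of integrins, 25 were tested, 1 rose and 1 fell, where 0.174% of all tested genes rose and 0.432% fell. TGFBI, a secreted RGD-containing matrix protein, rose from 28.5 ± 12.5 (SD, n = 6) to 101.7 ± 29.6 CPM (SD, n = 5), with an adjusted p of 0.0173 in edgeR. ICAM1, the ligand of the ITGAL and ITGB2 pair, fell from 212.8 ± 56.2 to 89.3 ± 10.6 CPM, with an adjusted p of 0.0189. FN1, fibronectin, averaged 770.4 ± 528.3 and 170.3 ± 42.7 CPM and missed the threshold at an adjusted p of 0.0503. Of 19 tetraspanins, membrane organisers that bind integrins laterally, 18 were tested and 1 fell, CD82, from 205.0 ± 94.6 to 54.6 ± 17.0 CPM with an adjusted p of 0.0233. Over the 23 other settings TGFBI was called in 20, ICAM1 in 19 and CD82 in 19. Leaving out evexomostat 002, 005 or 007 ended all 3 calls. The adjusted p in edgeR was then 0.0609 to 0.0654 for TGFBI, 0.0707 to 0.0747 for ICAM1 and 0.0707 to 0.0807 for CD82. Those fits called 2 of 16774, 1 of 16780 and 3 of 16770 genes over all genes. Leaving out evexomostat 003 ended the call of CD82 (0.0572), where 46 of 16765 genes were called. FN1 was called in 7 of the 23, among them DESeq2 (adjusted p 5.92e-05), quality weights (0.00849), and edgeR without vehicle 001 (0.0132) or without vehicle 005 (0.0332), and its log2 fold change was between -2.54 and -1.81 in all 23. Without vehicle 001 the ligands had 3 genes lower and 1 higher and the tetraspanins 3 lower, beside 5.22% of all genes called. The ligands had 2 lower and 1 higher without vehicle 005, 1 lower and 2 higher without vehicle 006, and 0 called without evexomostat 002, 005 or 007. Over all genes those fits called 77, 79, 2, 1 and 3, in the same order. DESeq2 called 4 ligands lower and 2 higher and 2 tetraspanins lower, beside 3.92% of all genes, and quality weights 4 lower and 3 higher and 4 lower, beside 6.36%. The median log2 fold change was -0.16 for the ligands and -0.15 for the tetraspanins.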

How the data were processed

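Per the labels' protocols, total RNA from a frozen piece of each tumour was made into NEBNext Ultra libraries and sequenced as paired reads of 150 bases on a HiSeq. The submitters' processing notes name bcl2fastq 2.17, STAR 2.7.5c, featureCounts, Subread and edgeR with GRCh37 (hg19). How strand and mouse reads were treated was not given in the sources used here. The authors deposited read counts per gene, library-scaled reads (RPM), and their own comparison with log2 fold changes and p-values. The RPM equalled the counts divided by the library total.

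The counts were fitted with edgeR 4.0.16 in R 4.3.3 (TMM factors, filterByExpr with a minimum count of 10 and a minimum total of 15, quasi-likelihood F-test, Benjamini-Hochberg over the 16653 genes kept, threshold 0.05). CPM are counts divided by the TMM-scaled library total on the same scale as RPM. Levels per kilobase divide CPM by the exon length in GENCODE release 29. Groups came from the sample titles, with 1 library a tumour. Because nothing in the labels ties libraries to batches, no batch term was used. No pair of libraries among 55 was a duplicate. DESeq2 1.42.0, limma 3.58.1 (voom, sample quality weights, and limma-trend on RPM with a pseudocount of 1 or 0.1 before log2), other scaling factors, other filters and leaving out each library were the alternatives. Offsets for transcript length and GC content (15746 genes with a length) were added after seeing the data. Total counts set the precision of low genes: 3 reads correspond to 0.0764 to 0.132 RPM. The fits were also run on counts simulated from fitted gene means and dispersions, without the length trend of vehicle 001. That run therefore cannot speak to the calls that changed with vehicle 001.

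The integrin and laminin genes and the gene lists were chosen with earlier results of these data known. Values are given for genes past an adjusted or unadjusted p of 0.05, the 3 most abundant per kilobase of each class, and LAMA3 with LAMB3 and their receptors. 1 tested gene is counted but its own values are not reported here. A further 8 genes with a log2 fold change of at least 0.25 in size (ITGA1, ITGA7, ITGA9, ITGA10, ITGA11, ITGAL, ITGB3 and LAMA4) were named after their values were seen. Permutation tests ran over all 462 ways to divide the libraries into 6 and 5, and correlations used 100000 resamples. Of the 38 genes, 17 overlap another gene in the table by RefSeq spans, and reads of such pairs may have been counted for the partner.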

Additional observations from a re-analysis of the deposited data

Results flagged for a closer look

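In 66 tests for a library far from the rest of its group (33 genes in 2 groups), 9 found one, where chance gives about 1 in 20 groups, or 3.3. The tests share the same 11 libraries and are not independent, so an excess over 3.3 is not shown. Of these, 3 were in vehicle 001: LAMB2 was 144.9 CPM against 333.1 to 414.7 in the other vehicle libraries, LAMA3 was 7.27 against 13.5 to 16.0, and ITGAE was 41.9 against 12.1 to 18.5. ITGA7 stood at 41.5 CPM in vehicle 005 against 8.53 to 16.5. LAMA4 reached 90.1 in vehicle 006 against 12.1 to 38.1. In evexomostat 005, ITGA1 was 6.69 CPM against 3.62 to 4.29 in the other evexomostat libraries and ITGA11 was 0.960 against 0.217 to 0.399. In evexomostat 003, ITGA3 was 502.5 CPM against 701.2 to 754.2, and ITGAX was 22.8 against 10.4 to 13.4. ITGAE overlaps HASPIN and ITGA1 overlaps PELO, and neither the part of these neighbours nor that of other cells in the values of these libraries was tested.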

How the results depend on the processing

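Of the 33 tested genes, 1 was called, lower. The called and the lower count were both 0 with upper-quartile factors, 0 with limma on log2(RPM + 1) or log2(RPM + 0.1), 0 with length and GC offsets, 2 with DESeq2 (ITGB8 and LAMA1) and 3 with quality weights (ITGB8, LAMA1 and LAMC1). Leaving out each library gave 0 to 4 called, 0 to 4 lower and 0 to 1 higher. Over all genes 101 were called: 649 with DESeq2, 1059 with quality weights and 1 to 865 with each library left out, the 865 without vehicle 001 and 1 without evexomostat 005. The cause of these changes was not tested.

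The titles of 4 libraries in each group share numbers. Same-numbered libraries had correlations of -0.27, 0.07, 0.05 and -0.10 between their deviations from the group means, so the numbers were not taken to pair tumours. With the number as a block, these 8 libraries gave 2 called, both lower (ITGA5 and ITGB8), and 107 over all genes, and without the block 4 called, all lower (ITGA5, ITGB8, LAMA1 and LAMC1), and 733 over all genes. ITGA5 was -0.92 (adjusted p 0.0472) with the block and -0.90 (0.0193) without it, and LAMA4 was 1.21 with the block.

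The sign of small log2 fold changes turned. ITGA3 was -0.088 with quality weights, -0.10 with the replicate block, -0.16 in those 8 libraries unblocked, -0.0053 with offsets and -0.15 to 0.16 with each library left out. LAMB2 was -0.12 in each of the first 3 of these fits, -0.037 with offsets and -0.15 to 0.077 with each library left out. On log2(RPM + 1) and log2(RPM + 0.1), ITGB4 was 0.14 and 0.14, ITGB5 0.067 and 0.070, and LAMA5 0.19 and 0.19, and with limma-voom ITGB4 was 0.062 and LAMA5 0.12. Leaving out each library gave -0.28 to 0.042 for ITGB4, -0.21 to 0.021 for ITGB5, -0.31 to 0.10 for LAMA5 and -0.023 to 0.66 for ITGA11. The median of the 33 genes stayed between -0.17 and 0.10. ITGA8, ITGAD, ITGB6, ITGB7 and LAMB4 did not pass the count filter and were not tested.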
